A study of Mus musculus with 50 samples.

Results

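Ccr2, Ly6c2, Plac8, Lyz2, Fn1, Vcan, F10 and S100a4 are 8 genes that monocytes and the cells derived from them transcribe at high levels and that resting microglia transcribe at lower levels. They were taken by name from the deposited count table, through the symbols of its Ensembl identifiers, and all 8 were found among its 48526 genes. The table holds 50 libraries of mouse brain cells sorted as microglia, in 14 groups. In the constitutive model the knockouts carried loxP-flanked Hdac1 and Hdac2 and Cx3cr1-Cre, received no treatment, and were taken at P0 (the day of birth, 3 knockouts and 4 controls), at 2 weeks (14 days, 2 knockouts and 4 controls) and at 6 weeks (45 days, 3 knockouts and 4 controls). The inducible knockouts carried the same loxP-flanked alleles and Cx3cr1-CreERT2, a Cre that tamoxifen activates, and were taken at embryonic day 16 (E16, 3 knockouts and 4 controls), at P0 (4 knockouts and 3 controls), at 2 weeks and at 6 weeks (4 knockouts and 4 controls at each). The controls of both models carried the loxP-flanked alleles and no Cre, and the inducible controls had the same tamoxifen as their knockouts, 3 mg given to the pregnant dam at embryonic day 13. Each library carries an animal number in the labels, which is unique within its group but can recur in another group. That number, written as in the labels (No_68), is used here with the group to name a library.

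Microglia descend from precursors of the embryonic yolk sac and renew themselves within the brain, whereas monocytes come from the bone marrow, circulate in blood and can become macrophages in tissue. HDAC1 and HDAC2 are histone deacetylases, enzymes that remove acetyl groups from histones and work within repressor complexes. Cx3cr1, the fractalkine receptor whose promoter drives both Cre alleles, is active in microglia, in macrophages at the borders of the brain and in a part of the monocytes, so that deletion is not limited by design to microglia. Among the 8 genes, Ccr2 encodes the receptor for the chemokine Ccl2 through which classical monocytes leave the marrow, and Ly6c2 encodes a part of the Ly6C surface antigen that marks them. Plac8 encodes a small cysteine-rich protein of myeloid cells, Lyz2 the bacteriolytic enzyme lysozyme of monocytes, macrophages and neutrophils, and S100a4 a calcium-binding protein. Fn1 (fibronectin) and Vcan (versican) encode matrix proteins, and F10 encodes coagulation factor X.

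The library totals ran from 11050277 to 29651179 counts. Levels below are CPM, counts scaled to a library total of 1000000, and a gene rose or fell where edgeR's quasi-likelihood test, adjusted by Benjamini-Hochberg over all genes tested, gave an adjusted p under 0.05. A log2 change is given with its standard error. Changes and folds carry TMM, edgeR's scaling between libraries, which the CPM levels, their sums and their ranges do not. A fold can therefore differ from the ratio of the printed CPM, and overlap between groups refers to CPM. The targeted genes were checked first. Hdac1 was at 7.31 to 92.2 CPM in 23 libraries labelled knockout against 11.4 to 19.0 CPM in 27 controls, and did not pass in any of the 7 knockout comparisons. By group, its CPM lay below all controls in constitutive knockouts at 2 weeks and in inducible knockouts at E16, P0 and 2 weeks, and overlapped elsewhere. Hdac2 was at 18.3 to 316 CPM against 59.8 to 165 CPM, and fell in the constitutive model at 6 weeks and in the inducible model at P0, 2 weeks and 6 weeks. The flanked exons are not given in the sources used here, so a count over the whole gene can hold exons that were not deleted. Constitutive libraries No_68 (P0) and No_380 (6 weeks) and inducible library No_1 (E16), all labelled knockout, had high Hdac1 or Hdac2. Constitutive library No_89 (2 weeks), also labelled knockout, had Hdac2 within the range of its controls, at 70.1 CPM against 59.8 to 71.3 CPM. Its Hdac1 was below theirs, at 15.1 CPM against 17.9 to 19.0 CPM. Each result is also given without these libraries where that changes it. Cx3cr1 itself was at 64.1 to 4804 CPM in libraries labelled knockout against 2403 to 8448 CPM in controls. The labels do not say whether animals of a group shared a litter or a sort, so a p-value measures the spread between these libraries. In sorted bulk RNA, a change in the share of a cell type and a change in RNA per cell cannot be told apart.

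On GRCm38, Ccr2 lies at chr9:124101950-124113557 on the plus strand, Ly6c2 at chr15:75108158-75111970 on the minus strand, Plac8 at chr5:100553725-100572245 on the minus strand and Lyz2 at chr10:117277331-117282321 on the minus strand. Fn1 lies at chr1:71585520-71653200 on the minus strand, Vcan at chr13:89655312-89742509 on the minus strand, F10 at chr8:13037308-13056676 on the plus strand and S100a4 at chr3:90603771-90606045 on the plus strand. Of the 50-base stretches of their exons, 47.4% for S100a4 also occurred in a transcript of Gm42674, which shares 51.7% of the exon bases of S100a4. That share was 15.4% for Lyz2, all of it with the neighbouring lysozyme gene Lyz1, 14.5% for Ly6c2, nearly all with Ly6c1, and 2.51% or less for the other 5 genes. Counts of S100a4, Lyz2 and Ly6c2 are therefore the ones in which reads could be lost to or gained from another gene.

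Promoters of 3 members are printed because their levels part at P0, where Ly6c2 and Plac8 rose in constitutive knockouts and Lyz2 did not pass. Each is the 250 bases before an annotated start in RefSeq (GRCm38.p6), 5′ to 3′ on the gene's own minus strand, and capitals mark matches to GAGGAA (the core letters bound by PU.1) or TGTGGT (the core letters bound by RUNX factors) on either strand. The windows are chr15:75111972-75112221 for Ly6c2, chr5:100572206-100572455 for Plac8 and chr10:117282273-117282522 for Lyz2.
Ly6c2: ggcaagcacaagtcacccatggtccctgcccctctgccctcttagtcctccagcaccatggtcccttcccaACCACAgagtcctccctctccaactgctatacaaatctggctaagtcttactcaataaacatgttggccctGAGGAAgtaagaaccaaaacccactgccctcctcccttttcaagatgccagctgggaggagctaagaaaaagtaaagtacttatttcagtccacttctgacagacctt
Plac8: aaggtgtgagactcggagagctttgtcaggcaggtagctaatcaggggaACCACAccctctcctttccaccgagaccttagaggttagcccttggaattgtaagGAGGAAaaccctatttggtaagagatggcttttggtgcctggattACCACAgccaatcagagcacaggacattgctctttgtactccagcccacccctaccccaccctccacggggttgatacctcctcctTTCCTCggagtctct
Lyz2: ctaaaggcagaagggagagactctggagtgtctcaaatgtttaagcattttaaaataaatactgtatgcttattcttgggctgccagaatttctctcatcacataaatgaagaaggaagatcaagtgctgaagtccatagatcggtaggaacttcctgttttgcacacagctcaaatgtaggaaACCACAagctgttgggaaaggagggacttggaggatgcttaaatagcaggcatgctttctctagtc
Of the 8 members, 7 had such windows (Fn1 had none), some with a second start. GAGGAA was found in the windows of Ly6c2 and Plac8, 2 of 7 members, against 23.3% of 32851 windows of that length. TGTGGT was found in those of Ly6c2, Plac8 and Lyz2, 3 of 7, against 14.0% of all windows. TTGCNNAA, letters of a C/EBP site, was found once, before the second start of Plac8, against 9.56% of all windows. No matches of different motifs overlapped. Such a match is a description of the letters only, and was not linked to the levels.

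Most of the 8 genes rose in constitutive knockouts at P0, and all 8 at 2 weeks. At P0, 6 of the 8 rose and none fell, where 21.4% of 18411 genes tested rose and 20.2% fell. At 2 weeks the 8 that rose compare with a background in which 24.4% of 15017 genes rose and 17.8% fell. At 6 weeks Lyz2 and Vcan rose, where 6.76% of genes rose and 5.24% fell. Among inducible knockouts at P0, Fn1 rose and Vcan fell, where 6.81% of genes rose and 3.56% fell. No member passed at E16 (0 of 8, where 0% of genes passed), at 2 weeks (0 of 5 tested, where 1.11% of genes rose and 1.13% fell) or at 6 weeks (0 of 5 tested, where 0.0492% rose and 0.0141% fell). At an unadjusted p under 0.05 these counts were 0 at E16, 4 at 2 weeks and 1 at 6 weeks, and with DESeq2 they were 0, 1 and 0. Over all genes, 2306 of 17594, 2214 of 13921 and 626 of 14217 had an unadjusted p under 0.05. With DESeq2, 345 genes rose and 336 fell at E16, 371 and 337 at 2 weeks, and 33 and 15 at 6 weeks. The median log2 change of the members was 1.71 in constitutive knockouts at P0, against 0.043 over all genes tested, and 5.71 at 2 weeks, against 0.0020. At 2 weeks Vcan, F10 and S100a4 passed the filter on low counts only through the knockout libraries. At 6 weeks Vcan did so too, while F10 and S100a4 needed 3 libraries over the minimum and had 2 knockouts and 2 controls.

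**Figure D1:**
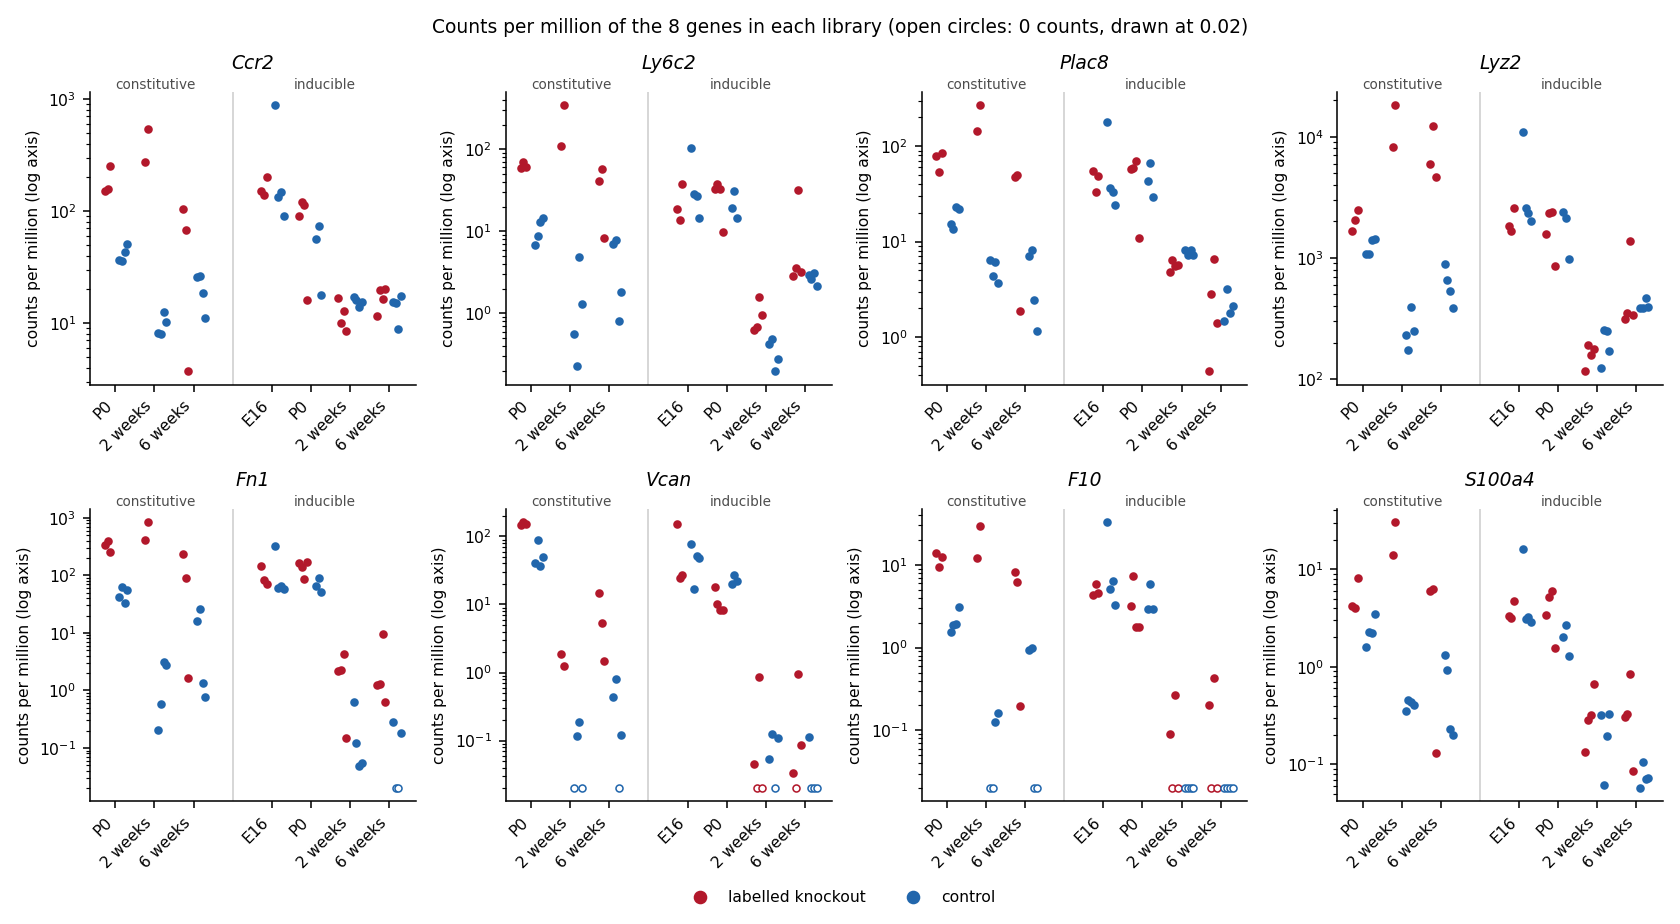
Level in CPM (log axis) of each of the 8 genes in all 50 libraries, with libraries labelled knockout (red) left of controls (blue) at each age and open circles for libraries with 0 counts. In the constitutive model at 2 weeks both knockout libraries lie above all 4 controls for every gene, for example 271 and 539.7 CPM against 7.94 to 12.4 CPM for Ccr2.

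**Figure D2:**
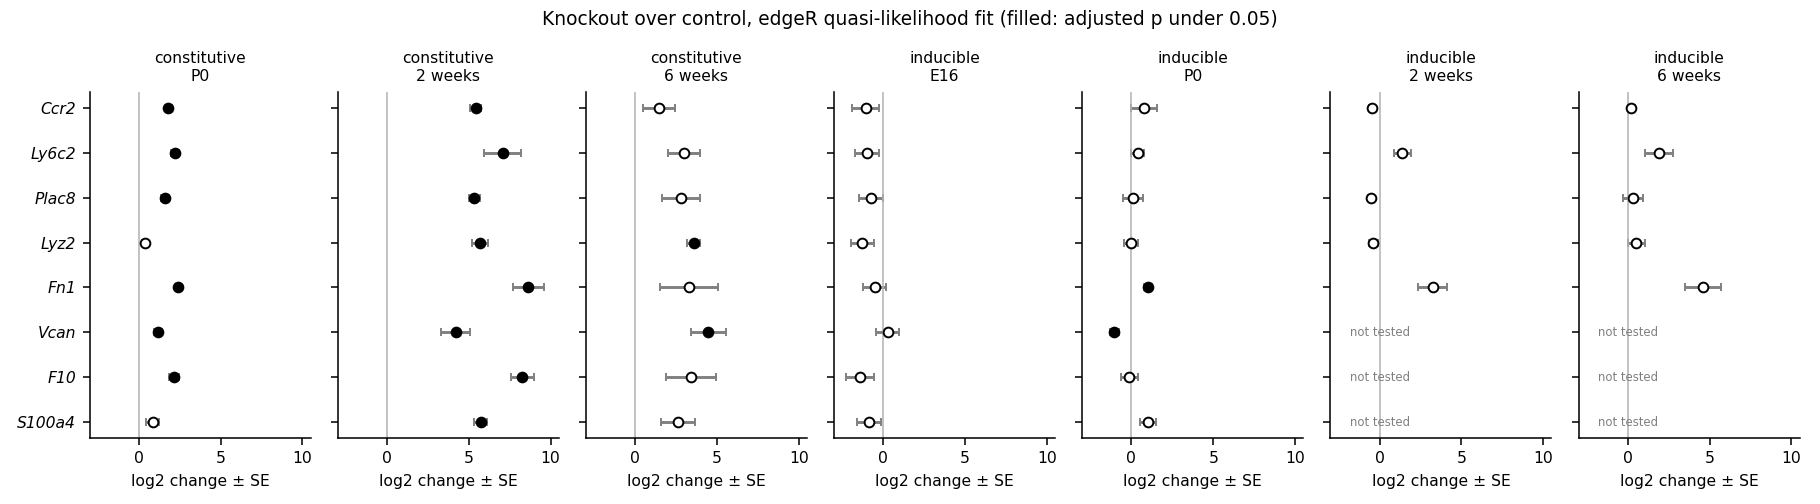
Log2 change, knockout over control, with its standard error, for each gene in the 7 knockout comparisons; filled points passed at an adjusted p under 0.05. All 8 points are filled in the constitutive model at 2 weeks, up to 8.65 for Fn1, and none at E16.

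Ccr2, the receptor that carries monocytes out of the marrow, had 149.9, 156 and 251 CPM in constitutive knockouts at P0, against 36.3, 35.5, 43.0 and 50.7 CPM in controls. It rose 3.52-fold (log2 change 1.81 ± 0.21, edgeR adjusted p = 7.7e-05), with no overlap between the groups. The 2-week levels were 271 and 539.7 CPM in knockouts, against 8.08, 7.94, 12.4 and 10.2 CPM in controls, a rise of 43.0-fold (5.42 ± 0.35, adjusted p = 4.0e-05). At 6 weeks the 3 libraries labelled knockout parted, with 104 CPM in library No_379, 68.02 CPM in library No_380 and 3.71 CPM in library No_398, against 25.5, 26.4, 18.5 and 11.1 CPM in controls. Library No_398 was thus below every control and the other 2 above, and the change of 1.47 ± 0.96 did not pass (adjusted p = 0.46). Inducible knockouts at P0 had 89.7, 120.3, 113 and 16.1 CPM against 55.8, 73.4 and 17.8 CPM in controls, groups that overlapped. Their levels were 8.56 to 16.9 CPM in knockouts against 13.9 to 17.0 CPM in controls at 2 weeks, and 11.5 to 20.2 CPM against 8.83 to 17.6 CPM at 6 weeks.

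The 3 chemokines that bind Ccr2, which are Ccl2, Ccl7 and Ccl12, did not follow the receptor at P0. All 3 fell there in constitutive knockouts, for example Ccl12 at a mean of 52.2 CPM against 121 CPM (-1.58 ± 0.28). At 2 weeks all 3 rose, Ccl12 with a mean of 413 CPM against 77.1 CPM (2.40 ± 0.13), and at 6 weeks Ccl12 and Ccl2 rose. None of the 3 passed in the inducible model.

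Ly6c2, the monocyte surface antigen gene, had 59.9, 69.5 and 61.2 CPM in constitutive knockouts at P0, against 6.73, 8.82, 12.9 and 14.4 CPM in controls (2.21 ± 0.24, edgeR adjusted p = 5.7e-05). By 2 weeks it had 109 and 344 CPM in knockouts, against 0.559, 0.230, 4.90 and 1.30 CPM in controls (7.09 ± 1.13, adjusted p = 0.0084). The groups did not overlap at either age, and control library No_81 was the highest of the 2-week controls. At 6 weeks the libraries labelled knockout had 40.5, 57.5 and 8.26 CPM against 7.06, 7.76, 0.817 and 1.84 CPM, again without overlap, and the change of 3.01 ± 0.98 did not pass (adjusted p = 0.12). Inducible knockout library No_6 at 6 weeks had 31.4 CPM, while the other 3 knockouts had 2.87 to 3.55 CPM and the controls 2.13 to 3.13 CPM. At 2 weeks the inducible knockouts had 0.629, 0.688, 1.57 and 0.968 CPM against 0.426, 0.492, 0.197 and 0.275 CPM in controls, and passed the filter only through the knockouts. These groups did not overlap, but no library held more than 29 reads and the change of 1.39 ± 0.50 did not pass (adjusted p = 0.17). Ly6c1, the near copy of Ly6c2 that endothelial cells also transcribe, rose in constitutive knockouts at P0 with 4.88, 8.997 and 9.57 CPM against 1.39 to 4.60 CPM (1.39 ± 0.44, adjusted p = 0.025). At 2 weeks Ly6c1 had 0.229 CPM or less in each knockout library.

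Plac8 had 79.1, 53.7 and 84.3 CPM in constitutive knockouts at P0, against 15.5, 13.5, 23.1 and 22.2 CPM in controls (1.61 ± 0.24, edgeR adjusted p = 0.00041). At 2 weeks the levels were 144 and 269 CPM in knockouts against 6.46, 4.37, 6.09 and 3.66 CPM in controls (5.34 ± 0.34, adjusted p = 2.9e-05). Each group lay apart from its controls at both ages. At 6 weeks the libraries labelled knockout had 47.4, 50.4 and 1.89 CPM against 7.001, 8.19, 2.45 and 1.16 CPM, and the change of 2.80 ± 1.16 did not pass. Inducible knockouts at 2 weeks were the lower group, with 4.85 to 6.36 CPM against 7.26 to 8.18 CPM in controls and no overlap, although the change of -0.53 ± 0.19 did not pass (adjusted p = 0.17).

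Lyz2, the lysozyme gene, had the smallest change of the 8 at P0. It had 1682, 2041 and 2469 CPM in constitutive knockouts against 1079, 1067, 1396 and 1436 CPM in controls, groups that did not overlap, and the change of 0.37 ± 0.18 did not pass (edgeR adjusted p = 0.13). At 2 weeks it had 8147 and 18182 CPM in knockouts against 229.9, 175, 395.7 and 249.7 CPM in controls (5.68 ± 0.50, adjusted p = 0.00044). At 6 weeks it had 5969, 12310.0 and 4634 CPM against 895, 658, 528 and 383 CPM (3.58 ± 0.42, adjusted p = 0.0012), and it was the member in which library No_398 also stood well above the controls. Lyz1, its near copy, rose at 2 weeks with 33.4 and 22.6 CPM against 0.126 to 0.407 CPM (6.55 ± 0.33, adjusted p = 1.9e-06) and at 6 weeks (3.68 ± 0.77, adjusted p = 0.011). Lyz2 overlapped between inducible knockouts and controls at all 4 ages. Knockout library No_6 at 6 weeks stood out, and its 1376 CPM lay above the 311 to 353 CPM of the other knockouts and the 383 to 465 CPM of the controls.

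S100a4, whose exons overlap Gm42674, had 4.24, 4.02 and 8.15 CPM in constitutive knockouts at P0 against 1.60, 2.27, 2.21 and 3.46 CPM in controls, and the change of 0.86 ± 0.39 did not pass (edgeR adjusted p = 0.10). At 2 weeks it had 13.9 and 30.3 CPM against 0.356, 0.461, 0.439 and 0.406 CPM (5.75 ± 0.40, adjusted p = 9.1e-06). At 6 weeks the libraries labelled knockout had 5.92, 6.25 and 0.130 CPM against 1.31, 0.917, 0.234 and 0.1997 CPM, with library No_398 below all controls. A list of 10 further genes holds other S100 genes, calcium-binding proteins of which several lie in the same cluster, and their partner Anxa2. Of this list 6 of 9 tested rose at P0, 8 of 8 at 2 weeks and 5 of 8 at 6 weeks in constitutive knockouts, and none fell. Its S100a8 and S100a9 are also among the neutrophil markers below. S100a6 rose at P0 with a mean of 106 CPM against 19.1 CPM (2.11 ± 0.17), and S100a10 rose at 2 weeks with a mean of 81.7 CPM against 2.66 CPM (4.94 ± 0.27). Among inducible knockouts S100a10 alone of this list rose, at P0 (1.07 ± 0.24).

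Fn1, the fibronectin gene, had 329.8, 397 and 249.96 CPM in constitutive knockouts at P0, against 41.8, 63.0, 32.6 and 56.1 CPM in controls (2.40 ± 0.20, edgeR adjusted p = 2.1e-05). In 2-week knockouts it had 405 and 838 CPM, against 0.203, 0.576, 3.14 and 2.76 CPM in controls (8.65 ± 0.97, adjusted p = 0.0023), the highest fitted change of the 8. At 6 weeks the libraries labelled knockout had 239, 90.0 and 1.63 CPM, against 16.2, 26.2, 1.32 and 0.759 CPM in controls, and the change of 3.30 ± 1.76 did not pass (adjusted p = 0.35). It was the 1 member that rose in the inducible model, at P0, with 164, 138, 86.3 and 172 CPM in knockouts against 64.4, 90.7 and 51.7 CPM in controls (1.04 ± 0.25, adjusted p = 0.024). The groups overlapped, and the call was lost without knockout No_48 (0.98, adjusted p = 0.059) or No_49 (1.05, 0.054) or control No_54 (1.01, 0.080) or No_56 (0.83, 0.087). At 2 weeks the inducible knockouts had 2.20, 2.23, 4.27 and 0.149 CPM against 0.639, 0.123, 0.0493 and 0.0550 CPM in controls. This overlapping difference did not pass with edgeR (3.24 ± 0.88, adjusted p = 0.089) and passed with DESeq2 (3.27, adjusted p = 0.00339). Fn1 needed 4 libraries over the filter's minimum there and had 3 knockouts and 1 control. It passed with edgeR without knockout No_6 (adjusted p = 0.0023) or control No_1 (0.035). Of 7 integrin subunits that bind fibronectin, 3 rose and 3 fell in constitutive knockouts at P0, and 2 of 6 tested rose and 2 fell at 2 weeks. Itga4, the α4 subunit of the receptor by which monocytes attach to vessel walls, rose at 2 weeks with a mean of 171 CPM against 2.03 CPM (6.41 ± 0.20), while Itgb3, the β3 subunit, fell (-2.27 ± 0.28). At 6 weeks 2 of the 7 rose and 1 fell, and in the inducible model Itgb3 fell at P0 and at 2 weeks.

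Vcan, the versican gene, followed another pattern from the other 7. In constitutive knockouts at P0 it had 149, 162 and 153 CPM, against 40.6, 88.2, 36.3 and 49.8 CPM in controls (1.18 ± 0.23, edgeR adjusted p = 0.0021), without overlap. It was close to absent in both groups at 2 weeks, with 1.89 and 1.24 CPM (33 and 28 reads) in knockouts against 0, 0.115, 0.188 and 0 CPM (5 reads in all) in controls. It passed there (edgeR adjusted p = 0.0038), but a fitted change over so few control reads depends on the count added to zeros. At 6 weeks it had 14.9, 5.30 and 1.496 CPM against 0.438, 0.795, 0 and 0.120 CPM (4.47 ± 1.06, adjusted p = 0.030). That call was lost without library No_376 (adjusted p = 0.088), No_379 (0.063), No_380 (0.066) or No_400 (0.097). It fell in inducible knockouts at P0, with 18.2, 10.3, 8.34 and 8.25 CPM in knockouts against 20.2, 26.7 and 22.3 CPM in controls (-1.03 ± 0.26, adjusted p = 0.030). Those groups did not overlap, but the call was lost without any 1 of the 3 controls (No_54, No_55 or No_56) or of knockouts No_49, No_53 and No_57, with changes of -1.10 to -0.93 and adjusted p of 0.053 to 0.12. Among 8 partners of versican and hyaluronan, Cd44, the hyaluronan receptor, rose in constitutive knockouts at P0 (1.45 ± 0.19), 2 weeks (6.36 ± 1.04) and 6 weeks (3.20 ± 0.56). Of this list 2 of 8 tested rose and 1 fell at P0, 3 of 4 rose at 2 weeks and 2 of 3 rose at 6 weeks, and none passed in the inducible model.

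F10, the gene of coagulation factor X, had 13.9, 9.34 and 12.5 CPM in constitutive knockouts at P0, against 1.53, 1.89, 1.91 and 3.06 CPM in controls (2.16 ± 0.32, edgeR adjusted p = 0.00038). At 2 weeks it had 11.9 and 29.5 CPM (209 and 666 reads) in knockouts, against 0, 0, 0.126 and 0.163 CPM in controls, 4 reads in all (8.27 ± 0.71, adjusted p = 4.4e-05). All 8 inducible controls at 2 and 6 weeks held 0 reads. The inducible knockouts were also nearly without it, with 7 reads in all at 2 weeks and 14 at 6 weeks, and F10 was not tested there. At 6 weeks the constitutive libraries labelled knockout had 8.30, 6.25 and 0.195 CPM against 0.938, 0.978, 0 and 0 CPM, which did not pass (3.41 ± 1.51, adjusted p = 0.24). Of 10 partners in coagulation, 3 of 8 tested rose and 3 fell in constitutive knockouts at P0, 2 rose and 3 fell at 2 weeks, and 2 rose and 1 fell at 6 weeks. F5, the cofactor of activated factor X, rose at P0 (2.38 ± 0.31), 2 weeks (6.92 ± 0.97) and 6 weeks (2.39 ± 0.55), while Pros1, the anticoagulant protein S, fell at all 3 ages, by 2.56 ± 0.26, 1.55 ± 0.21 and 0.90 ± 0.14 on the log2 scale. Among inducible knockouts Tfpi, an inhibitor of activated factor X, was the 1 of 8 tested that rose, at P0 (0.54 ± 0.16).

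Single libraries departed from their groups for nearly the whole set at once. Constitutive library No_398, labelled knockout at 6 weeks, was the lowest of its group for all 8 genes, and its 7 genes other than Lyz2 summed to 17.3 CPM. Without it the members called at 6 weeks numbered 5 rather than 2, with Ccr2 (2.03), Plac8 (3.37) and S100a4 (3.20) added. Without library No_376, No_379, No_380 or No_400 the count was 1, Lyz2. The share of all genes called without these libraries was not set beside these counts. At E16, control library No_2 had 881 CPM of Ccr2, against 139, 151 and 203 CPM in knockouts and 89.9, 134 and 148 CPM in the other controls. It exceeded the next control 5.94-fold for Ccr2, 3.55-fold for Ly6c2, 4.95-fold for Plac8, 4.26-fold for Lyz2, 4.94-fold for Fn1, 5.13-fold for F10 and 5.00-fold for S100a4, and 1.49-fold for Vcan. The E16 knockouts had 18.6, 13.6 and 37.7 CPM of Ly6c2 and 1840.4, 1672 and 2568 CPM of Lyz2, against 14.4 to 28.8 CPM and 2007 to 2592 CPM in the other 3 controls. Vcan was high at E16 in library No_1, labelled knockout, with 153 CPM against 24.6 and 27.5 CPM in the other 2 knockouts. With all E16 libraries 7 of 8 log2 changes were negative. Without control No_2 and knockout No_1, an alternative chosen after the data were seen, 6 of 8 were positive, at most 0.45 ± 0.22 for Ccr2, and none passed.

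**Figure D3:**
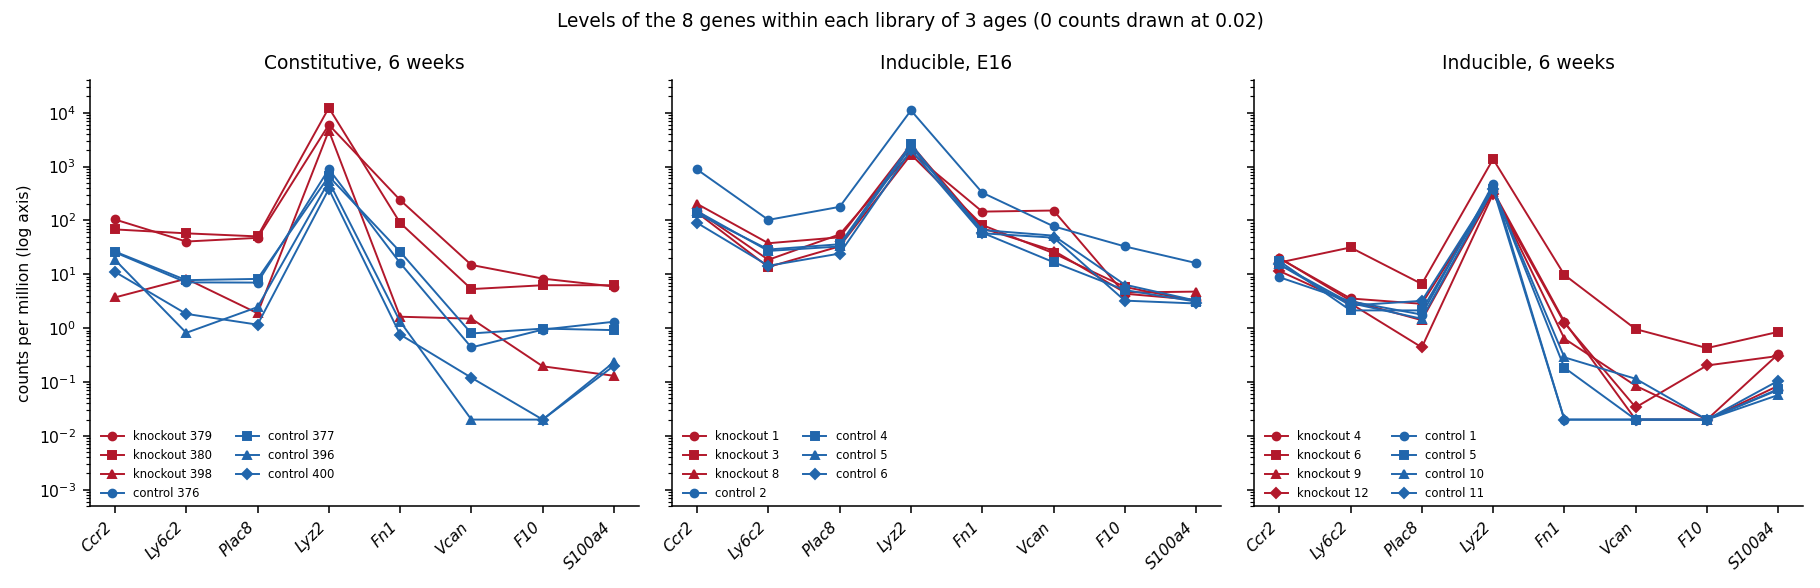
Level in CPM (log axis) of the 8 genes along each library of 3 ages, knockouts in red and controls in blue, with 1 marker shape for each animal of a group. Constitutive library No_398 runs below the other 2 knockouts for all 8 genes, E16 control No_2 runs above the other libraries for 7 of 8 genes, and inducible knockout No_6 is highest of its group for 7 of 8.

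Inducible knockout No_6 at 6 weeks was the highest of its group for all members but Ccr2. It exceeded the next knockout 8.86-fold for Ly6c2, 7.41-fold for Fn1 and 3.90-fold for Lyz2, with Fn1 at 9.73 CPM against 0.637 to 1.31 CPM in the other knockouts and 0 to 0.286 CPM in controls. At P0 in the inducible model, knockout No_57 was the lowest of its group for 6 members and control No_56 for 7. Both constitutive 2-week knockouts were far above their controls, and library No_89 had 1.87 to 3.15 times the CPM of library No_80 for 7 members but 0.656 times for Vcan. All 8 members were also called without library No_89, but that leaves 1 knockout library, which is then assumed to vary like the 4 controls. The 6 calls at P0 stayed without library No_68.

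Markers of neutrophils, the other abundant blood cell that transcribes Lyz2, moved with the 8 genes. All 13 neutrophil markers rose in constitutive knockouts at P0 and at 2 weeks, and 11 of 12 tested at 6 weeks. Their summed level was 7974 to 12404 CPM in knockouts against 739.6 to 1739.6 CPM in controls at P0, 19092 and 54702 CPM against 122 to 891 CPM at 2 weeks, and 2349.7 to 5240.2 CPM against 427 to 735 CPM at 6 weeks. E16 control No_2 had 7625 CPM of them, the highest of its age, and inducible knockout No_6 had 8946 CPM, the highest of the inducible libraries at 6 weeks. None of 13 passed in the inducible model at P0, and at 2 weeks Mmp9 (1.83 ± 0.39) and Retnlg (1.74 ± 0.38) rose. The part of neutrophil RNA in the levels of the 8 genes was not tested.

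Most of the 22 genes listed as other classical monocyte genes also rose. Neither this list nor that of non-classical monocytes was limited to genes that neutrophils lack (Cd177 and Pglyrp1 are examples). The part of neutrophil RNA in the counts of these lists was not tested. In constitutive knockouts 16 of 21 tested rose at P0, 22 of 22 at 2 weeks and 12 of 22 at 6 weeks, and none fell. Examples are Ms4a4c, a membrane protein gene of myeloid cells, with a mean of 92.8 CPM against 1.75 CPM at 2 weeks (5.74 ± 0.25), Vim (vimentin) at P0 (1.45 ± 0.12) and the chemokine receptor Ccr1 at 6 weeks (3.98 ± 0.32). Vim and Ms4a4c rose in inducible knockouts at P0, and Ccr1 (0.96 ± 0.14) and Vim (1.07 ± 0.27) rose at 2 weeks. Of the non-classical monocyte genes, 6 of 10 rose and 1 fell at P0, 9 of 9 rose at 2 weeks and 4 of 9 at 6 weeks in constitutive knockouts. Ace, angiotensin-converting enzyme, which patrolling monocytes carry, rose at 2 weeks with a mean of 54.5 CPM against 0.115 CPM (8.90 ± 0.58). Fabp4 and Itgal, 2 of 10, rose in inducible knockouts at P0. Genes of blood-derived macrophages in the brain parted at P0, where 6 of 11 rose and 4 fell, and rose in 11 of 11 at 2 weeks and 9 of 10 at 6 weeks. Ms4a7, a gene of macrophages that microglia transcribe little, had a mean of 244 CPM in constitutive knockouts against 1.17 CPM in controls at 2 weeks (7.71 ± 0.23), and 552 CPM against 1.41 CPM at 6 weeks (8.65 ± 0.47). It is also among the border macrophage markers below, and genes such as Itga4 and Cd44 are likewise in more than 1 list. Counts of different lists are therefore not independent. Runx3, 1 of 11, rose in inducible knockouts at P0 and Cd38, 1 of 8, at 2 weeks. In the constitutive model at 2 weeks a gene needed 2 libraries over the filter's minimum of 0.574 CPM. Genes of any list below it in every control were therefore tested only through the knockouts, which limits shares such as 9 of 9 and 11 of 11. Ace and Runx3, at most 0.377 and 0.203 CPM in controls, are examples.

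**Figure D4:**
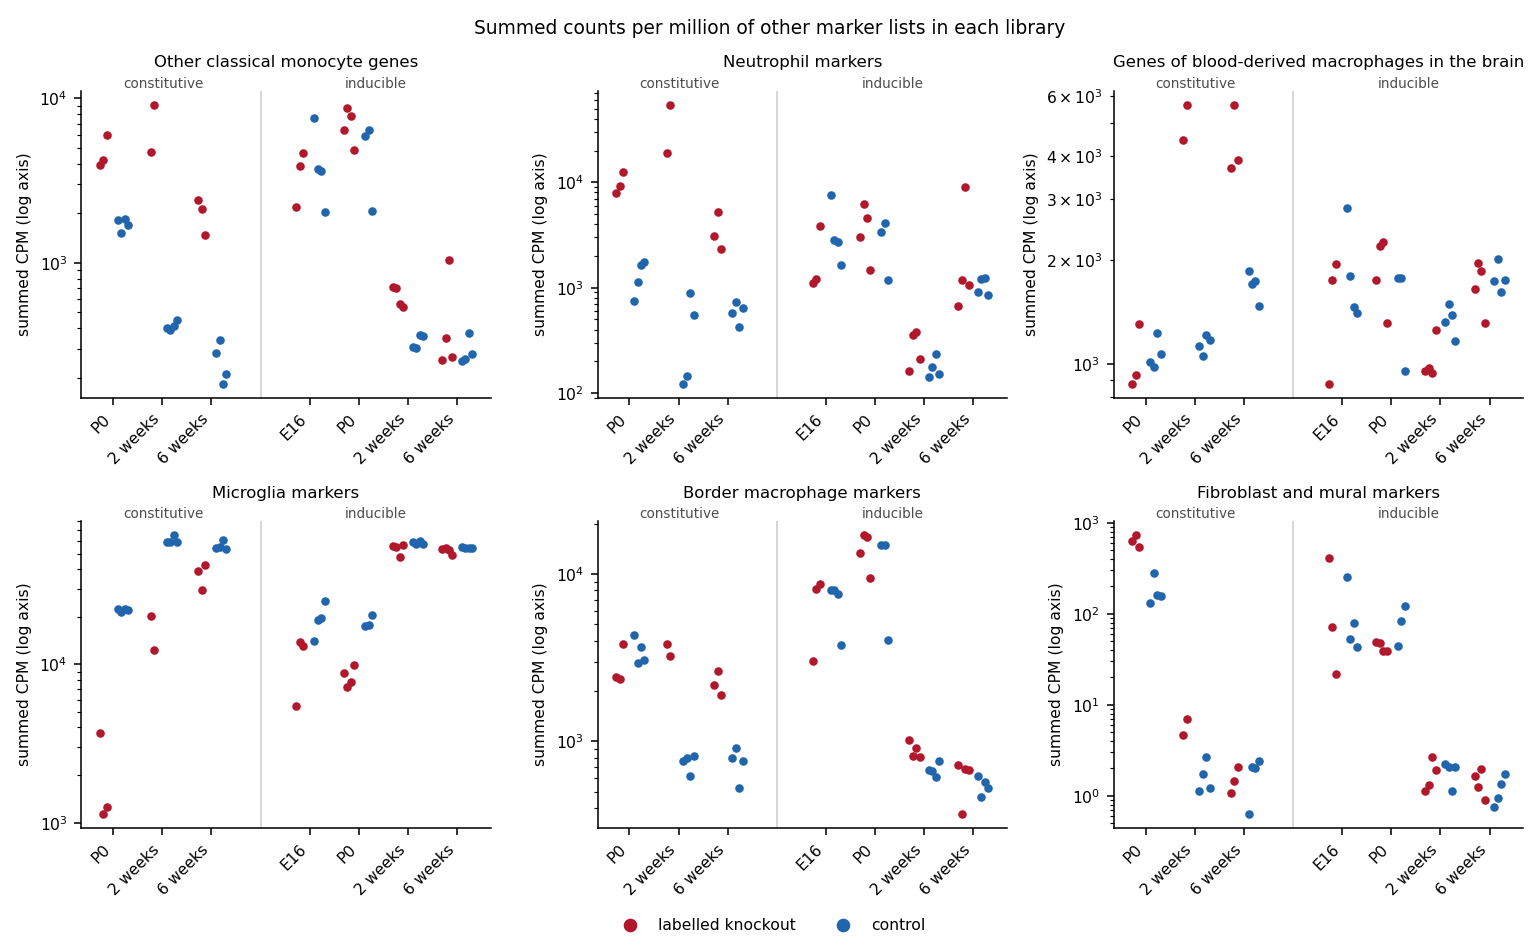
Summed CPM (log axis) of 6 marker lists in each library, knockouts (red) left of controls (blue) at each age. Neutrophil marker sums in constitutive knockouts lie above those of controls at all 3 ages, and microglia marker sums lie below.

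Microglia markers went the other way in the same libraries. In constitutive knockouts 12 of 12 fell at P0, 11 of 12 at 2 weeks and 7 of 12 at 6 weeks, with sums of 1133 to 3706 CPM against 21519.8 to 22487 CPM at P0, 12406 and 20308 CPM against 58908 to 65556 CPM at 2 weeks, and 29482 to 42559.5 CPM against 53501 to 60887 CPM at 6 weeks. Among inducible knockouts 8 of 12 fell at P0. Cx3cr1 alone fell at 2 weeks (a mean of 3355 CPM against 6020 CPM) and at 6 weeks (3562 CPM against 7620 CPM). Cx3cr1 is 1 of these 12 markers, and its promoter drives the Cre alleles that the controls lack. The part of the Cre allele in its levels was not tested. Border macrophage markers fell in 9 of 11 at P0 and rose in 9 of 11 at 2 weeks and 7 of 11 at 6 weeks in constitutive knockouts, and 2 of 10 rose in the inducible model at 2 weeks. Myeloid progenitor genes rose in 8 of 10 and fell in 1 at P0, and rose in 8 of 10 and fell in 2 at 2 weeks, while none of 5 tested passed at 6 weeks and 1 of 10 fell in the inducible model at P0. Mpo, the peroxidase of granule-forming precursors, rose at P0 with a mean of 51.0 CPM against 2.65 CPM (3.90 ± 0.65). Of 12 monocyte and macrophage factors, none rose and 7 fell at P0, 5 rose and 3 fell at 2 weeks, and none passed at 6 weeks. In the inducible model 3 of the 12 fell at P0.

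Markers of cells outside the myeloid lineage also differed at P0. In constitutive knockouts at that age all 10 fibroblast and mural, all 10 neuron, all 9 astrocyte and all 7 erythroid markers tested rose, with 5 of 10 endothelial and 6 of 10 oligodendrocyte lineage markers (1 fell). Fibroblast sums, which bear on Fn1 and Vcan because fibroblasts transcribe both, were 546 to 738 CPM in knockouts against 133 to 281 CPM in controls, and neuron sums 2744 to 3410.2 CPM against 767 to 1668 CPM. At 2 weeks the fibroblast sums were 4.63 and 6.90 CPM in knockouts against 1.12 to 2.64 CPM in controls, and Col1a2, Col3a1, Lum and Rgs5 had no reads in either knockout library. At 2 weeks 1 of 2 fibroblast markers rose, 1 of 5 endothelial rose and 3 fell, 1 of 6 oligodendrocyte rose and 2 fell, 2 of 8 astrocyte and 1 of 4 erythroid fell, and none of 5 neuron markers passed. At 6 weeks no fibroblast marker passed the filter on low counts, 1 of 5 endothelial rose and 1 fell, 1 of 8 astrocyte fell, and none of 5 oligodendrocyte, 4 neuron or 2 erythroid markers passed. In the inducible model at P0, 1 of 9 fibroblast, 2 of 10 oligodendrocyte and 1 of 9 astrocyte markers fell, 1 of 10 endothelial rose and 1 fell, and none of 10 neuron or 7 erythroid markers passed. Inducible library No_1 at E16, labelled knockout, had the highest neuron (3020.5 CPM), astrocyte (1779 CPM) and erythroid (13344 CPM) sums of its age beside its 153 CPM of Vcan. The part of these cells in the levels of the 8 genes was not tested.

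Dendritic cell markers rose in 5 of 12 and fell in 2 at P0, rose in 7 of 11 and fell in 1 at 2 weeks, and rose in 2 of 10 at 6 weeks in constitutive knockouts, and 1 of 12 fell in the inducible model at P0. H2-Aa, a major histocompatibility complex class II gene, rose at 2 weeks with a mean of 115 CPM against 0.468 CPM (7.95 ± 0.40). Lymphocyte markers rose in 6 of 10 and fell in 1 at P0, rose in 4 of 5 and fell in 1 at 2 weeks, and rose in 1 of 2 and fell in 1 at 6 weeks, while 1 of 11 fell in the inducible model at P0. Cd79b, a B cell receptor chain that microglia also transcribe, was the 1 that fell in each of these. Summed lymphocyte levels at 2 weeks were 28.8 and 62.7 CPM in constitutive knockouts against 83.9 to 97.6 CPM in controls, and overlapped at P0. Of those that rose at 2 weeks, Ms4a1, Nkg7 and Cd3d had means of 0.0203, 0.0949 and 0.0127 CPM in controls. They passed the filter on low counts only through the knockout libraries. At E16 no gene of any of these lists passed.

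The knockout effect on the 8 genes was set between the models at matched ages. At P0 the constitutive effect exceeded the inducible for Ly6c2 (by 1.85 ± 0.51 on the log2 scale, edgeR adjusted p = 0.013), Fn1 (1.40 ± 0.34, 0.0064), Vcan (2.25 ± 0.38, 0.00072) and F10 (2.33 ± 0.65, 0.014), 4 of 8 members where 30.9% of genes passed. F10 was lost there without inducible control No_55 (1.92, adjusted p = 0.052), and Plac8 passed without inducible knockout No_57 (1.20, 0.031). At 2 weeks it did so for Ccr2 (5.84 ± 0.39, adjusted p = 1.4e-07), Ly6c2 (5.68 ± 1.70, 0.026), Plac8 (5.86 ± 0.33, 4.4e-09), Lyz2 (6.04 ± 0.56, 1.3e-05) and S100a4 (5.28 ± 0.77, 5.1e-05), 5 of 8 where 31.2% of genes passed. Ly6c2 was lost without inducible control No_1 (5.56, adjusted p = 0.072), No_2 (5.49, 0.076) or No_4 (5.76, 0.053), and Vcan passed without inducible knockout No_16 (5.84, 0.019). F10 was tested at 2 and 6 weeks and did not pass, but the inducible controls held no reads of it at either age, so the size of its fitted difference is not given. At 6 weeks Lyz2 alone passed (3.06 ± 0.73, adjusted p = 0.031), where 4.95% of genes did. Its call was lost without any 1 of 11 of the 15 libraries (2.53 to 3.09, adjusted p of 0.053 to 0.10), and Ccr2 passed without library No_398 (1.82, adjusted p = 0.014). The models differ in Cre allele and in tamoxifen together, and these cannot be told apart in this test. The labels give no batch, so a batch cannot be told apart from model or age.

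Within the constitutive model the effect was higher at 2 weeks than at P0 for all 8 genes, by 2.97 ± 0.74 for Vcan up to 6.18 ± 0.81 for Fn1, where 30.8% of genes passed in either direction. Controls fell between these ages, so the difference is not a rise in knockouts alone. Vcan went from a mean of 155 to 1.56 CPM in knockouts, and its 2-week controls held 5 reads, with 4 for F10. Ccr2 went from 186 to 406 CPM in knockouts and from 41.4 to 9.65 CPM in controls. Comparing 6 weeks with 2 weeks, 7 of 8 differences were negative and none passed with edgeR, where 15.8% of genes did. There were 5 members at an unadjusted p under 0.05 and 3 with DESeq2. Over all genes, 4912 of 16043 had an unadjusted p under 0.05, and with DESeq2 1306 differences were positive and 2002 negative. The member nearest to passing with edgeR was Ccr2 (-3.96 ± 1.18, adjusted p = 0.050066). It passed without library No_379 (-4.66, adjusted p = 0.045) or No_398 (-3.38, 0.0052), and Lyz2 passed without library No_80, No_81, No_380 or No_400 (-2.63 to -2.28, adjusted p of 0.024 to 0.045). In the inducible model no member's effect differed between ages with edgeR, at P0 against E16 (0% of genes passed), 2 weeks against P0 (4.38%) or 6 weeks against 2 weeks (0%). At an unadjusted p under 0.05 these counts were 0, 3 and 0, and with DESeq2 they were 0 in each. Over all genes, 983 of 18916, 3517 of 17914 and 1029 of 15043 had an unadjusted p under 0.05. With DESeq2, in the same order, 0, 931 and 3 differences were positive and 0, 669 and 3 negative. Fn1 passed at 2 weeks against P0 without 2-week knockout No_6 (2.65, adjusted p = 0.043).

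In controls, levels of the 8 genes were higher before and at birth than afterwards. All 8 fell at 2 weeks against P0 in both models, where 36.6% of genes fell in constitutive and 32.7% in inducible controls. Vcan showed the widest span, in constitutive controls ranging over 36.3 to 88.2 CPM at P0, over 0 to 0.188 CPM at 2 weeks, and over 0 to 0.795 CPM at 6 weeks. In inducible controls Fn1 ranged over 51.7 to 90.7 CPM at P0, over 0.0493 to 0.639 CPM at 2 weeks, and over 0 to 0.286 CPM at 6 weeks (-8.05 ± 0.47, edgeR adjusted p = 4.1e-07, for 2 weeks against P0). In constitutive controls Lyz2 held 1067 to 1436 CPM at P0, 175 to 395.7 at 2 weeks and 383 to 895 at 6 weeks. Its change at 2 weeks against P0 was -1.95 ± 0.24 (edgeR adjusted p = 2.7e-05), where the 8 members ran from -9.02 to -1.55. From E16 to P0 no member passed in inducible controls, where 0.0464% of genes rose and 0.0116% fell. There 3 members had an unadjusted p under 0.05, as did 1875 of 17251 genes. None of the members passed with DESeq2, where 242 genes rose and 185 fell.

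Between 2 and 6 weeks different members passed in the controls of each model. In constitutive controls Ccr2 rose, with 25.5, 26.4, 18.5 and 11.1 CPM at 6 weeks against 7.94 to 12.4 CPM at 2 weeks (1.04 ± 0.26, edgeR adjusted p = 0.013), 1 of 5 members tested where 8.8% of genes rose. Lyz2 passed as well without 2-week control No_81 (1.48, adjusted p = 0.013) or 6-week control No_400 (1.37, 0.032). In inducible controls Ly6c2 rose (2.88 ± 0.42, adjusted p = 0.00019), with 2.13 to 3.13 CPM at 6 weeks against 0.197 to 0.492 CPM at 2 weeks. Lyz2 rose there too (0.96 ± 0.21, adjusted p = 0.011), with 383 to 465 CPM against 123 to 254 CPM, and Plac8 fell (-1.90 ± 0.26, adjusted p = 0.00011), with 1.49 to 3.21 CPM against 7.26 to 8.18 CPM. These are 3 of 4 members tested, where 8.13% of genes rose and 8.98% fell, and Ly6c2 passed the filter only through the 6-week libraries. The groups did not overlap for any of the 3.

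**Figure D5:**
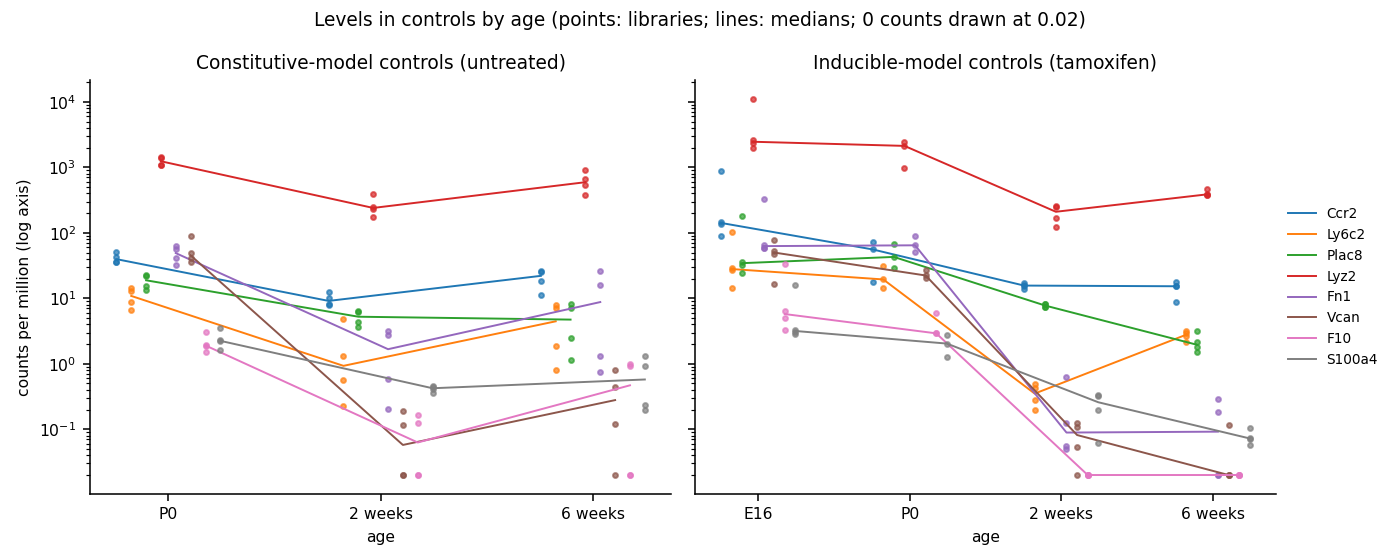
Level in CPM (log axis) of the 8 genes in controls of each model by age, with a point for each library and a line through the medians. All 8 genes lie lower at 2 weeks than at P0 in both panels, and E16 control No_2 forms the highest points of the inducible panel.

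Tamoxifen-treated inducible controls and untreated constitutive controls carry the same alleles and differ in breeding and treatment. Breeding, treatment and a batch, which the labels do not give, cannot be told apart here. At P0 Plac8 was higher in the tamoxifen-treated controls, with 42.8, 66.8 and 29.3 CPM against 13.5 to 23.1 CPM (1.44 ± 0.28, edgeR adjusted p = 0.036), and Vcan was lower, with 20.2, 26.7 and 22.3 CPM against 36.3 to 88.2 CPM (-1.08 ± 0.27, adjusted p = 0.0497). These were 2 of 8 members, where 4.18% of genes passed. The count was 5 without inducible control No_56, where Ccr2, Ly6c2, Lyz2 and Fn1 passed beside Plac8, and Vcan did not. Without constitutive control No_70, No_71 or No_74 or inducible control No_54 or No_55 it was 0. The share of all genes called without these libraries was not set beside the counts. At 2 weeks Ccr2 was higher, with 13.9 to 17.0 CPM against 7.94 to 12.4 CPM (0.71 ± 0.17, adjusted p = 0.044), where 1.78% of genes passed, a call lost without any 1 of 7 of the 8 libraries (0.62 to 0.77, adjusted p of 0.056 to 0.14). At 6 weeks none of 5 tested passed with edgeR, where 0.22% of genes did, against 2 at an unadjusted p under 0.05 and 1 with DESeq2. Over all genes, 1138 of 14084 had an unadjusted p under 0.05, and with DESeq2 78 were higher and 82 lower.

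Over the 14 groups, 7 of the 8 genes had their highest mean in constitutive knockouts at 2 weeks, and Vcan had its highest in constitutive knockouts at P0, with a mean of 155 CPM. The lowest means lay in inducible controls or knockouts at 2 or 6 weeks for 7 genes and in constitutive controls at 2 weeks for Ccr2. Most neighbours in the order of means overlapped between libraries, 13 of 13 neighbouring pairs for S100a4, 12 of 13 for Lyz2 and F10, 11 of 13 for Ccr2 and Vcan, and 10 of 13 for Ly6c2, Plac8 and Fn1. Constitutive knockouts at 2 weeks stood clear of the next group for Ly6c2, Plac8 and Fn1. The correlation of log2(CPM + 1) over the 14 group means, which share libraries and depth, was 0.857 to 0.972 for the 21 pairs of members without Vcan and 0.561 to 0.743 for its 7 pairs. On the TPM scale, which divides counts by gene length before scaling and so permits a comparison between genes, Lyz2 was the highest of the 8 in all 14 groups and F10 and Vcan were among the lowest 3. In constitutive knockouts at 2 weeks the mean TPM level was 28135 for Lyz2, 352 for Plac8, 222 for Ly6c2, 172 for Ccr2, 144 for Fn1, 102 for S100a4, 20.5 for F10 and 0.301 for Vcan.

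The genes most like each member were sought by Pearson's r of log2(CPM + 1) over the 14 group means among 12854 genes that reached 5 CPM in at least 1 group mean. Ccr2 was most like Arhgef37 (r = 0.986), Nxpe4 and Ifi205, and Ly6c2 most like Plbd1 (0.996), F5 and Chil1. Plac8 was most like Tmem51 (0.984), Ms4a4b and Gpr132, and F10 most like Gpr132 (0.987), Napsa and Ms4a4b. Lyz2 was most like Sh2d1b1 (0.985), Clec12a and Cybb, the catalytic subunit of the phagocyte oxidase. Fn1 was most like Crip1 (0.977), Itgb7 and Nedd9, and S100a4 most like Prdx5 (0.979), Sirpb1a and Gapt. Vcan was most like Tenm4 (0.991), Cep170b and Igfbp2, which, like Vcan and unlike the other 21 entries, had their highest group mean in constitutive knockouts at P0.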

How the data were processed

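Total RNA from 50 libraries of cells sorted from mouse brain as microglia was amplified from 1 ng with the SMARTer Ultra Low Input kit v4 (11 cycles), and libraries were made with Nextera XT from 150 pg of cDNA, per the labels' protocols. The authors deposited gene counts, with gene lengths, and CPM, counts scaled to a library total of 1000000; the submitters' processing notes name CASAVA 1.8.2, STAR 2.5.2b, Subread, featureCounts 1.5.1, limma 3.28.21 and GRCm38. Whether strand was used in counting was not stated. The deposited CPM equalled those recomputed from the counts to within 4.9e-06. TPM were computed from the deposited counts and lengths. Symbols were matched for 48058 of 48526 identifiers, and the other 468 held 0.058% of counts.

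Groups come from titles, genotypes, treatments and ages in the labels. Each of 23 comparisons was fitted with edgeR 4.0.16 (R 4.3.3) to the libraries it compares (filterByExpr, TMM scaling, robust quasi-likelihood fit, Benjamini-Hochberg adjustment over all genes tested, threshold 0.05), after a test on simulated data. A standard error is the log2 change divided by the square root of F. Alternatives were RLE scaling, DESeq2 1.42.0, no filter, a single fit over all 50 libraries, and leaving out libraries. The 8 members and the 23 lists, of whose 218 genes 217 matched, were chosen with earlier results of these data known. Besides members, targets and near copies, up to 4 genes per list and comparison with the smallest adjusted p, and the 3 genes most like each member, could be named. Promoters come from RefSeq (GRCm38.p6). Figures used matplotlib 3.10.9.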

Additional observations from a re-analysis of the deposited data

Results flagged for a closer look

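Within groups of 4 libraries, 15 of 70 checks for a single library far from the other 3 were positive. Chance gives about 1 in 20 for independent checks of normally spread values. The members were measured in the same libraries and varied together, so that rate is no measure for these checks. Control library No_2 at E16 accounted for 7 of the positive checks, with 881 CPM of Ccr2, 102 CPM of Ly6c2, 179 CPM of Plac8, 11000 CPM of Lyz2 (to 3 digits), 327 CPM of Fn1, 32.9 CPM of F10 and 16.1 CPM of S100a4. Inducible knockout library No_6 at 6 weeks accounted for 4, with 31.4 CPM of Ly6c2, 1380 CPM of Lyz2 (to 3 digits), 9.73 CPM of Fn1 and 0.957 CPM of Vcan. The others were Vcan in inducible knockout No_16 at 2 weeks (0.864 CPM), Fn1 in inducible control No_1 at 2 weeks (0.639 CPM), Lyz2 in inducible control No_1 at 6 weeks (465 CPM) and Vcan in inducible control No_10 at 6 weeks (0.115 CPM).

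The knockout effect differed between models or ages in 18 tests with edgeR at an adjusted p under 0.05. Constitutive minus inducible, the log2 differences at P0 were 1.85 for Ly6c2, 1.40 for Fn1, 2.25 for Vcan and 2.33 for F10. At 2 weeks they were 5.84 for Ccr2, 5.68 for Ly6c2, 5.86 for Plac8, 6.04 for Lyz2 and 5.28 for S100a4, and at 6 weeks 3.06 for Lyz2. In the constitutive model the effect at 2 weeks minus that at P0 was 3.55 for Ccr2, 4.80 for Ly6c2, 3.67 for Plac8, 5.24 for Lyz2, 6.18 for Fn1, 2.97 for Vcan, 6.05 for F10 and 4.83 for S100a4. The 2-week controls held 5 reads of Vcan and 4 of F10.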

How the results depend on the processing

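No paired analysis was possible because the animal numbers name different animals in each group. In constitutive knockouts the 6 members called at P0 and the 8 at 2 weeks kept their number without any 1 library, and E16 kept its 0; at 2 weeks, leaving out a knockout leaves 1, which is assumed to vary like the controls. The count at 6 weeks (2) was 1 with no filter, 7 in a single fit over all 50 libraries, 1 without the libraries labelled knockout with high Hdac1 or Hdac2, and 1 to 5 without 1 library. In the inducible model the count at P0 (2) was 0 in the single fit and 0 to 1 without 1 library, and at 2 weeks (0) it was 1 with DESeq2, 1 with no filter and 0 to 1 without 1 library. Between models the count at P0 (4) was 1 in the single fit, and at 6 weeks (1) it was 0 with no filter, 0 without the high-Hdac libraries and 0 to 2 without 1 library. The constitutive change from 2 to 6 weeks (0) gave 3 with DESeq2, 4 in the single fit and 0 to 1 without 1 library, and the inducible one from P0 to 2 weeks (0) gave 0 to 1 without 1 library. For controls at 6 against 2 weeks the single fit gave 0 in both models, and in the constitutive one DESeq2 gave 2 and leaving out 1 library 1 to 2. For tamoxifen-treated against untreated controls, P0 (2) gave 1 with RLE, 0 in the single fit and 0 to 5 without 1 library; 2 weeks (1) gave 2 with DESeq2, 3 with no filter, 0 in the single fit and 0 to 1 without 1 library; and 6 weeks (0) gave 1 with DESeq2. No called change turned its direction, and the cause of these moves was not tested. For most of these alternative fits the share of all genes called was not set beside the count of members. A change in such a count therefore cannot be told apart from a general gain or loss of calls. Members at 0 or a few reads in controls after P0 (F10, Vcan, S100a4) are limited by depth.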
